A study of Bos taurus with 8 samples.

Results

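The miR-30 family was followed on 8 arrays of cattle plasma exosomes. Its members were chosen by name, as the 6 entries bta-miR-30a-5p, bta-miR-30b-5p, bta-miR-30c, bta-miR-30d, bta-miR-30e-5p and bta-miR-30f among the 744 bovine miRNAs on the array. All 6 were flagged as detected by the scanner software on all 8 arrays, as were 143 of the 744 miRNAs. MicroRNAs are short RNAs that pair with mRNAs, mainly through a seed near their 5′ end, and lower the output of the mRNAs they pair with. The miR-30 members share 1 seed and differ in the bases beyond it, and they are made from hairpins at separate places in the genome. The family is known from the differentiation of fat cells and from heart and kidney, and its members are regularly found among the miRNAs of exosomes, the small vesicles that cells release into blood.

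Plasma of Japanese Shorthorn steers was sampled at 0, 1, 2 and 4 mo, when 1 group was on pasture and the other was kept in a barn on cut grass. Exosomes were collected by ultracentrifugation, and the RNA of 3 steers per group and month was pooled before it was labelled with Cy3 and hybridized to 1 array. Each value is therefore 1 pool on 1 array with no replicate, and because of the pooling nothing can be said of single animals. All 8 arrays lay on 1 slide, with each label in its own column and each month in its own row, so slide position cannot be told apart from label or month.

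The labels of the arrays were opposite to the column names under which the authors give the same raw signals in their published data. For each of the 4 arrays labelled housed, 6 of 6 members lay within 1% of a column headed G, which stands for grazing cattle, and for each of the 4 arrays labelled grazing, 6 of 6 lay within 1% of a column headed A. In any other column at most 1 of the 6 did. The paper's text gives shares of miR-126-3p and miR-451 for housed cattle at the start. They equal those of the array labelled grazing 0 mo, 2.44% and 1.41%. The array labelled housed 0 mo had 3.86% and 1.52%, so the paper's text goes with the column names. The arrays are named here by their labels, and every direction between labels is reversed if the column names are right.

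The signal of a miRNA is the background-subtracted brightness of its 40 spots as summed by the scanner software, in arbitrary units. Its error estimate is also the software's, refers to 1 array and does not cover the differences between animals. It is not the scatter of the spots. The signal of the miR-30b-5p probe of 17 bases was 9.95 and 9.97 times its estimate on the arrays labelled housed 0 and 1 mo. The coefficient of variation of its spots was 8.93% and 2.44%. The arrays differed in depth. Added up over detected miRNAs, the signal came to 157696, 84288, 62438 and 90951 for the label housed, in the order 0, 1, 2 and 4 mo, and 57316, 45507, 63558 and 51625 for the label grazing. The 6 members together held 0.526%, 0.855%, 0.649% and 0.737% of it under the label housed, and 0.483%, 0.689%, 0.742% and 0.494% under the label grazing. This share was lowest at 0 mo under both labels. To compare arrays, signals were scaled so that the 90th percentile of the 744 miRNAs was equal on every array and put on the log2 scale, and a change is the difference from the 0 mo array with that label.

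The members that share most of their probe sequence are shown by their longest probe, 5′ to 3′, since the array tells them apart by these bases alone. The probes are complementary to the 3′ part of each miRNA. Capitals mark the bases at which the probe differs from that of another member by at most 2 substitutions.
bta-miR-30a-5p: agcttccagtcGAgg
bta-miR-30d: agcttccagtcGGgg
bta-miR-30e-5p: agcttccagtcAAgga
bta-miR-30c: gctgagagtgtaggAtgt
bta-miR-30f: agctgagagtgtaggGt
bta-miR-30b-5p: agctgagtgtaggatgtt
With positions counted from 1 at the 5′ end of the first probe named, the probe of miR-30a-5p differs from that of miR-30d by A13G and from that of miR-30e-5p by G12A, and the probe of miR-30c differs from that of miR-30f by A15G. No member of the pairs differs elsewhere in the bases both probes cover. Binding of 1 member to the probe of another was not tested.

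The array design places the members in 3 pairs on the bovine build UMD_3.1. The longest probes of miR-30c and miR-30e-5p lie at chr3:106059389-106059405 and chr3:106062517-106062531, with 3111 bases between them. Those of miR-30f and miR-30a-5p lie at chr9:10730950-10730965 and chr9:10768292-10768305, with 37326 bases between them. The probe of miR-30d lies at chr14:8080307-8080320, and that of miR-30b-5p is given 2 places, chr14:8084741-8084758, which is 4420 bases from miR-30d, and chr14:6477886-6477903. In the gene order of the ARS-UCD2.0 annotation, in which 6 of 6 members were matched by symbol, MIR30C and MIR30E are neighbours that lie within NFYC, which encodes a subunit of the transcription factor NF-Y, MIR30D and MIR30B are neighbours between genes, and MIR30A lies within a protein-coding gene model that starts between MIR30F and MIR30A. The longest probes of the members of a pair share a run of at most 4 bases, while those of some members of different pairs share up to 14.

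The error estimates of the members, relative to the signal, differed widely. miR-30b-5p was read by 3 probes and each other member by 2, so these estimates are not a like measure of precision. miR-30b-5p had signals from 124 to 417 with error estimates from 6.81% to 6.87% of the signal, and miR-30c had signals from 54.4 to 202 with errors from 8.25% to 8.95%. miR-30d had signals from 39.8 to 116 with errors from 7.74% to 9.10%. These 3 were well above background at 40 of 40 spots on every array. miR-30a-5p had signals from 13.9 to 48.0, with errors from 9.78% to 16.9%. Its probe of 14 bases was well above background at 7 of 20 spots on the array labelled housed 0 mo and at 0 of 20 on each other array, so its values rest on the probe of 15 bases, which was well above background at 20 of 20 spots throughout and held from 88.5% to 91.5% of the signal. miR-30f, with signals from 11.9 to 31.4, had errors from 10.1% to 18.2%, and miR-30e-5p, with signals from 7.37 to 26.5, had errors of up to 26.5% and as few as 4 of 40 spots well above background. Brightness depends on the probe, so these signals give no order of abundance among members.

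On these arrays bta-miR-30d was the member with the largest change. The study also measured miR-30a and miR-30d by qRT-PCR, and those results are not restated here. Its scaled log2 signal was -0.07, 0.48, 0.40 and 0.09 at 0, 1, 2 and 4 mo under the label housed, and 0.00, 1.01, 0.88 and 0.22 under the label grazing. Under both labels the 1 and 2 mo arrays were high and the 0 and 4 mo arrays low. The change from 0 mo to the months 1, 2 and 4 was 0.55 ± 0.16 (error estimate), 0.46 ± 0.16 and 0.15 ± 0.16 under the label housed, and 1.00 ± 0.18, 0.88 ± 0.17 and 0.21 ± 0.19 under the label grazing. At 1 and 2 mo these changes are thus more than 2 error estimates from 0, and at 4 mo they are not. The fold under the label grazing was 2.01 at 1 mo and 1.84 at 2 mo. The sizes depend on the scaling and the signal used. Over 9 alternatives the log2 changes at these months ran from 0.57 to 1.27 and from 0.65 to 1.40 under the label grazing, and from 0.16 to 0.99 and from -0.64 to 0.86 under the label housed, where the 2 mo change was reversed with no scaling. Among the 143 miRNAs detected on all arrays, the change of miR-30d was rank 9 from the highest at 1 mo and rank 16 at 2 mo under the label housed, and rank 5 and rank 11 under the label grazing. The median change of the 143 was 0.02 and -0.03 at these months under the label housed, and 0.25 and 0.01 under the label grazing. At 4 mo the change of miR-30d was rank 47 under the label housed and rank 41 under the label grazing. Both probes of miR-30d had the same sign in 6 of 6 changes, with at most 0.20 between them.

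bta-miR-30b-5p and bta-miR-30c varied less. The scaled log2 signal of miR-30b-5p was 1.94, 2.04, 1.91 and 1.97 at 0, 1, 2 and 4 mo under the label housed, and 1.74, 2.22, 2.00 and 1.86 under the label grazing. That of miR-30c was 0.89, 1.01, 0.77 and 1.07, and 0.56, 1.17, 0.75 and 0.67. For both, the array labelled grazing 1 mo was the highest of all 8 and the array labelled grazing 0 mo the lowest, and the labels overlapped. The change at that 1 mo was 0.47 ± 0.14 for miR-30b-5p and 0.61 ± 0.18 for miR-30c, beside the median of 0.25 over all 143. All other changes of these members were within 2 error estimates of 0. miR-30b-5p spanned 0.47 on the log2 scale over the 8 arrays, which is rank 8 from the smallest among the 143 miRNAs, and let-7g, the reference miRNA of the study's qRT-PCR, spanned 0.49, rank 10.

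The remaining members had larger errors. bta-miR-30a-5p was at -1.18, -0.99, -0.91 and -1.10 under the label housed and at -1.26, -1.17, -1.65 and -0.97 under the label grazing, so the array labelled grazing 2 mo stood lowest, with a change of -0.39 ± 0.30 from 0 mo. bta-miR-30f was at -1.83, -1.41, -1.53 and -1.51, and at -1.76, -1.33, -2.01 and -1.53, and its lowest array was also the one labelled grazing 2 mo. bta-miR-30e-5p lay between -2.11 and -1.58 under the label housed and was at -1.89, -1.78, -1.72 and -2.22 under the label grazing, with error estimates of a change between 0.23 and 0.47. Of the 18 changes of these 3 members, 1 was more than 2 error estimates from 0, that of miR-30f on the array labelled housed 1 mo, 0.42 ± 0.21. Over all 6 members 7 of 36 changes were, 4 of them of miR-30d. How many changes of miRNAs outside the family are more than 2 error estimates from 0 is not given here. The error estimates belong to single arrays and do not cover the differences between animals, so this count does not set the family apart from other miRNAs.

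**Figure D1:**
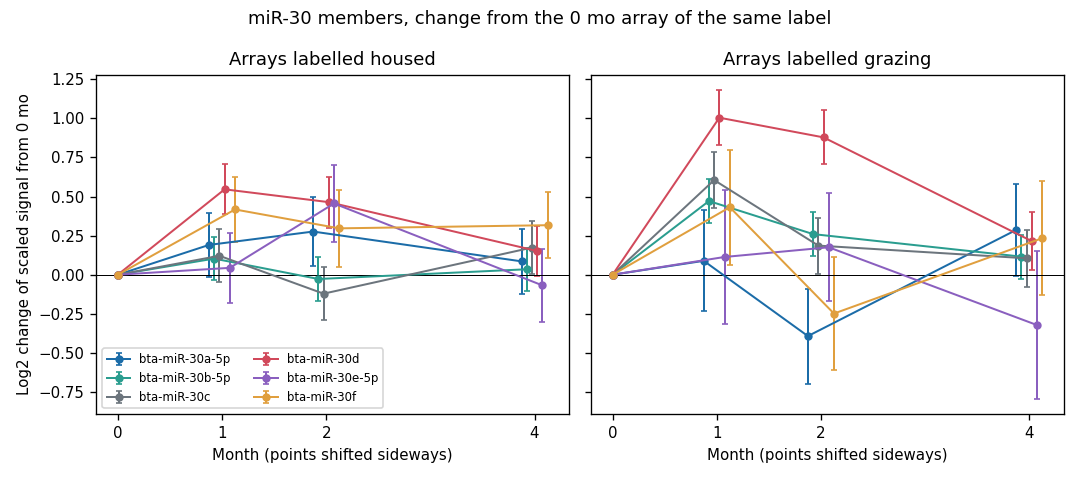
Log2 change of the scaled signal of each miR-30 member from 0 mo, within a label, against month, with the arrays labelled housed on the left and those labelled grazing on the right. Points are single arrays, each of 1 pool of 3 steers, lines join the months of 1 member, and bars are the scanner software's error estimate of the change. miR-30d reached 1.00 at 1 mo under the label grazing, and at 4 mo all members lay between -0.32 and 0.32.

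The mean change of the family was smaller than that of miR-30d. The mean change over the 6 members was 0.24, 0.22 and 0.12 at 1, 2 and 4 mo under the label housed, with an SD over members of 0.20, 0.25 and 0.13, and 0.45, 0.14 and 0.11 under the label grazing, with an SD of 0.34, 0.45 and 0.22. Members share arrays, so they are not replicates. Averaged over the later months the family stood at 0.19 and 0.23 under the labels housed and grazing, against a median of 0.00 and 0.15 over the 143 miRNAs. The value for the label housed was reversed, at -0.44, with no scaling, where the median of the 143 was itself -0.63, so the direction there holds relative to other miRNAs and not for the raw brightness. With the 75th percentile in place of the 90th, the median of the 143 shifted to 0.37 and 0.37 and the family to 0.56 and 0.45.

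Whether the labels differed in their mean change from 0 mo was tested with limma on the 143 miRNAs, with Benjamini-Hochberg adjustment at 0.05. None of the members passed the test, 0 of 6, where 1.4% of the 143 did, and 0 of the 6 had an unadjusted p under 0.05, where 9 of the 143 had. The difference, grazing minus housed, was -0.19 ± 0.43 (SE) for miR-30a-5p, 0.25 ± 0.39 for miR-30b-5p, 0.24 ± 0.41 for miR-30c, 0.31 ± 0.40 for miR-30d, -0.15 ± 0.40 for miR-30e-5p and -0.20 ± 0.41 for miR-30f. Each had an adjusted p of 0.961. The fit had 2 residual degrees of freedom, and each SE was larger than the difference it belongs to.

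The labels were then compared at 1, 2 and 4 mo alone, with month as a block. The 3 steers of a group are the same at each month, so the months stand as replicates without being independent, and the p-values take no account of this. Again 0 of 6 members were called, where 11.2% of the 143 were, and 0 had an unadjusted p under 0.05, where 52 of the 143 had. miR-30d had the largest difference among members, 0.38 ± 0.20, with a limma adjusted p of 0.186. It was higher under the label grazing at 3 of 3 later months, by 0.53 ± 0.16, 0.48 ± 0.16 and 0.13 ± 0.18 (error estimate) in that order, and at 0 mo by 0.07 ± 0.17. Of the other members 2 had a difference of more than 2 error estimates, both lower under that label, -0.75 ± 0.28 for miR-30a-5p at 2 mo and -0.40 ± 0.18 for miR-30c at 4 mo. Outside the family let-7g passed this cut as well, with -0.40 ± 0.15 at 2 mo and -0.38 ± 0.15 at 4 mo. How many of the 143 miRNAs pass it is not given here. In the fit the other members had -0.27 for miR-30a-5p, 0.05 for miR-30b-5p, -0.09 for miR-30c, -0.01 for miR-30e-5p and -0.14 for miR-30f. Scaled to let-7g, miR-30d was called, at 0.71 with an adjusted p of 0.0115, where 31.7% of the 142 miRNAs tested were called, and let-7g itself had a difference of -0.33 ± 0.20 before this scaling, which moves all others alike. With no scaling the sign of miR-30d was reversed, at -0.46. Adjusted p ran from 0.0115 to 0.758 over the 15 alternatives, so the call depends on the scaling.

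The later months were set against 0 mo over both labels, with the later months standing as repeats of each other, which they strictly are not. Of the members 0 of 6 were called, where 6.99% of the 143 were, and 1 had an unadjusted p under 0.05, where 34 of the 143 had. The member was miR-30d, at 0.54 ± 0.23 with an adjusted p of 0.168, higher than at 0 mo on 6 of 6 later arrays. The others lay between 0.07 for miR-30e-5p and 0.24 for miR-30f, with 0.09 for miR-30a-5p, 0.16 for miR-30b-5p and 0.18 for miR-30c. miR-30d stayed positive under all 23 alternatives, between 0.20 with no scaling and 0.84 with the 75th percentile. It was called under 1 of them, with the 4 mo arrays left out, where 14% of the 143 miRNAs were called.

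Differences between members on 1 array do not depend on a scaling by 1 factor per array, though quantile normalization can change them. Each array was therefore also set to the mean log2 signal of the 6 members and the same fits were run. Of the members 0 of 6 were called in each, with 0 at an unadjusted p under 0.05, where 0%, 0.699% and 14% of the 143 miRNAs were called and 8, 50 and 33 had an unadjusted p under 0.05 in the difference between labels, the labels at 1, 2 and 4 mo, and the later months against 0 mo. Against the family mean miR-30d differed by 0.27 ± 0.34, 0.39 ± 0.17 and 0.33 ± 0.19 in these fits, with limma adjusted p of 0.911, 0.148 and 0.393. Each of these was positive under all alternatives run, 11 for the first and second and 19 for the last. Their sizes ran from 0.070 to 0.37, from 0.18 to 0.52 and from 0.20 to 0.47. The lowest value came with normexp correction of the spots in the first and second fits. In the last it came without the array labelled grazing 0 mo.

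The ratio of miR-30d to miR-30a-5p, whose probes differ by A13G alone, moved most among the 15 pairs of members. It was 2.17, 2.77, 2.47 and 2.27 at 0, 1, 2 and 4 mo under the label housed, and 2.40, 4.53, 5.80 and 2.28 under the label grazing. The arrays labelled grazing at 1 and 2 mo stood apart from the other 6. On the log2 scale the change of this ratio from 0 mo was 0.92 ± 0.37 (error estimate) and 1.27 ± 0.35 at these months, against 0.36 ± 0.26 and 0.19 ± 0.28 under the label housed. With normexp correction of the spots these became 0.45 and 0.88, and 0.25 and -0.05. A ratio shows unequal change and not which member changed. Between the probes of 15 bases alone the ratio was 1.90, 3.38, 4.34 and 1.86 under the label grazing and lay between 1.75 and 2.09 under the label housed.

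The ratio of miR-30d to miR-30b-5p, its neighbour on chromosome 14, differed most in the same months. On the log2 scale it differed from 0 mo by 0.44 ± 0.21 and 0.49 ± 0.22 at 1 and 2 mo under the label housed, and by 0.53 ± 0.22 and 0.62 ± 0.22 under the label grazing, and stood within 0.12 of its start at 4 mo. miR-30b-5p and miR-30c, in contrast, kept nearly the same ratio on all 8 arrays, between 1.87 and 2.39. They lie on different chromosomes, and their longest probes share a run of 13 bases. The root mean square (RMS) distance between their courses, each centred on its own mean, was 0.11, less than the 0.16 their error estimates give, and the smallest of the 15 pairs. The largest was 0.50, between miR-30a-5p and miR-30d, against 0.22 from errors. The pair on chromosome 9, miR-30a-5p and miR-30f, lay 0.15 apart, against 0.29 from errors, that on chromosome 3, miR-30c and miR-30e-5p, 0.29 against 0.28, and that on chromosome 14, miR-30b-5p and miR-30d, 0.29 against 0.15.

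**Figure D2:**
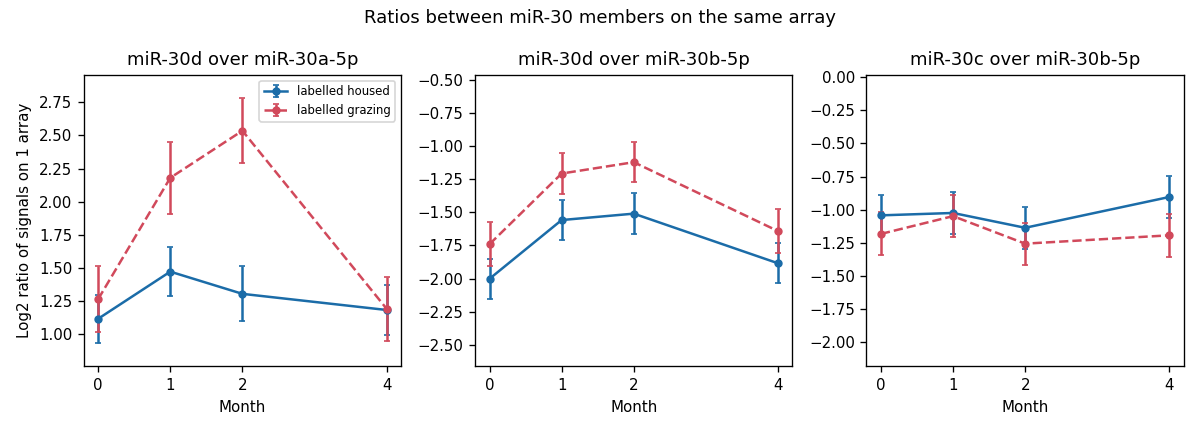
Log2 ratio of the signals of 2 miR-30 members on the same array, against month, for miR-30d over miR-30a-5p, miR-30d over miR-30b-5p and miR-30c over miR-30b-5p. Points are single arrays, solid lines join those labelled housed, broken lines those labelled grazing, and bars are the error estimate of the ratio. All panels span the same height on the log2 scale, and miR-30d over miR-30a-5p on the array labelled grazing 2 mo stands 1.27 above its start.

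The spread of the members' courses was read beside that of let-7, another family with 1 seed at several loci. The error estimates differ between the families too, so the spreads alone give no order. The SD over members of the centred courses was 0.21 for the 6 miR-30 members and 0.17 without miR-30d, against error estimates of 0.17 and 0.18. For the 8 members named let-7 it was 0.14, against an error estimate of 0.11, and for all 143 miRNAs 0.38, against 0.18. Leaving out the member with the largest change lowers such a spread by itself, so the value without miR-30d decides nothing about the other members. The error estimates belong to 1 array each and do not cover the differences between pools. No test was run on these spreads.

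The 5 miRNAs outside the family with the course nearest to the members' mean over the 8 arrays were let-7i, miR-106a, miR-20a, miR-103 and miR-151-5p, at RMS distances of 0.10, 0.11, 0.12, 0.13 and 0.13, where the median over the 137 other miRNAs was 0.32. The course of miR-30d lay nearest to those of miR-223, miR-652, miR-345-5p, miR-425-5p and miR-181a, at 0.15, 0.16, 0.19, 0.20 and 0.22, a comparison chosen after the values of miR-30d were seen. miR-30b-5p was its nearest fellow member, at rank 15 and 0.29. miR-223, known from myeloid cells, differed from 0 mo by 0.51, 0.22 and 0.06 at 1, 2 and 4 mo under the label housed, and by 1.15, 1.34 and 0.20 under the label grazing.

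Plasma exosomes can come from many cells, so lists of miRNAs known from possible sources were read beside the family. The platelet and myeloid list, with 5 of 7 miRNAs detected on all arrays, held 6.53%, 9.72%, 6.91% and 8.61% of the detected signal under the label housed, and 4.48%, 6.24%, 7.55% and 5.07% under the label grazing. Of this, miR-126-3p alone held 3.86%, 5.72%, 4.11% and 5.40%, and 2.44%, 2.79%, 2.67% and 2.81%. The paper describes miR-126-5p, which is also on that list, as specific to endothelium. miR-142-3p and miR-191 of that list were detected on 0 arrays. The red cell list, 5 of 5, held 2.16%, 3.90%, 3.57% and 4.83%, and 1.92%, 2.12%, 1.69% and 1.77%. The lymphocyte list, 4 of 5, held between 0.154% and 0.211% on all arrays, and the liver list, 1 of 4, between 0.0167% and 0.0516%. Of the muscle list 0 of 7 were detected on all arrays, and miR-133b was detected on 2 arrays, where it held at most 0.00773%. The part of these sources in the members' values was not tested.

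Counts of the lists by the same fits gave the members a setting. In the comparison of labels at 1, 2 and 4 mo, 3 of 5 red cell miRNAs (miR-144, miR-16a and miR-451) were lower under the label grazing, where 11.2% of the 143 miRNAs were called in either direction, as were 1 of 5 of the platelet and myeloid list (miR-126-5p) and 1 of 8 of the miRNAs named let-7 (let-7e), and 1 of 4 of the lymphocyte list (miR-150) was higher. miR-98, which has the let-7 seed and is not on that list, was also lower, at -0.66. The medians of the lists in this order were -0.67, -0.12, -0.34 and 0.31, against -0.05 for the miR-30 members and -0.01 for all 143. Of the list of miRNAs known from fat cell differentiation, a process in which miR-30 is also known, 0 of 8 were called in each of the 3 comparisons, where 1.4%, 11.2% and 6.99% of the 143 were, with medians of 0.21 for the difference between labels in change, -0.22 for the labels at 1, 2 and 4 mo and 0.18 for the later months, where the miR-30 members had 0.04, -0.05 and 0.17. In the difference between labels in change and in the later months against 0 mo, 0 miRNAs of any of these lists were called.

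The only other arm of a miR-30 hairpin on the array, miR-30b-3p, was detected on 0 of 8 arrays, and 0 of its 40 spots were well above background on any of them. The hairpin of miR-30b was thus seen through its 5′ arm alone, with signals of at least 124 on every array.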

How the data were processed

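The authors read the 1-colour Agilent arrays with version 10.7.3.1 of the Feature Extraction software, and the deposited intensity values are background-subtracted and not normalized between arrays. The authors' series table holds a ratio, the signal normalized by the authors to a 90 percentile in GeneSpring GX. The raw signal over this ratio was 1 factor per array for miR-30b-5p, miR-30c and miR-30d, and was up to 1.75 times that factor, and more than 1% above it, in 14 of the 48 member values, those of miR-30a-5p (7), miR-30f (5) and miR-30e-5p (2). Of its 743 entries 141 matched the 143 miRNAs tested, 8 columns were used and 0 left out. Column medians were 0.000664, 0.000926, 0.00149 and 0.000915 for the label housed, and 0.00187, 0.00257, 0.00135 and 0.00241 for grazing, and the set behind its 90 percentile stays unknown. The flags for detection, background and outliers are the scanner software's, as deposited.

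Total gene signals were divided by the array's 90th percentile over 744 miRNAs. The lowest detected scaled signal of each array was found, and the highest of these 8, 0.114, stood for undetected values and for 104 lower detected values, with 0 values of members among them. Log2 differences were fitted with limma 3.58.1 in R 4.3.3 to the 143 miRNAs detected on all 8 arrays, with Benjamini-Hochberg adjustment. The fits were tested on simulated data, with log2 changes of 2 in 20 of 143 miRNAs over independent noise of SD 0.2. They recovered 100% of these, with at most 1 false call per comparison. The members' fitted differences were smaller, so recovery at their size was not tested. Groups follow the deposited labels. Errors of a change are the root of the summed squared error estimates. Python 3.11.15, numpy 2.4.6, pandas 2.3.3 and matplotlib 3.10.9 served for the rest.

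Named were the 6 members, miR-30b-3p, let-7g, the 5 nearest courses and the miRNAs of 7 lists. Other miRNAs with the members' seed are not analysed here. Members and lists were chosen with earlier results of these data known. Alternatives covered scaling, signal, filter, variance and months. The authors' normalized values and leaving out single arrays were added after seeing the data.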

Additional observations from a re-analysis of the deposited data

Results flagged for a closer look

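With 4 months per label, 26 series of values were looked at for an array far from the others, and 1 was singled out, where chance alone gives about 1 in 20. On the arrays labelled grazing the log2 signal of bta-miR-30b-5p minus the family mean was 2.18, 2.20 and 2.19 at 0, 1 and 4 mo and 2.30 at 2 mo, so the 2 mo array lay far from 3 values that are close together. The same quantity was 2.32, 2.18, 2.07 and 2.24 on the arrays labelled housed, which span more than that gap. The months of a label are not replicates, and the cause was not tested.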

How the results depend on the processing

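The count of members called was 0 of 6 in the difference between labels in change under 15 alternatives, and 0 for members against the family mean under 11 in all 3 comparisons and under 8 more, leaving out single arrays, in the later months against 0 mo. It became 1, miR-30d, in the labels at 1, 2 and 4 mo when scaled to let-7g, with 45 of 142 miRNAs called (0 under the other 14), and 1, miR-30d, in the later months against 0 mo without the 4 mo arrays, with 20 of 143 called (0 under the other 22). Calls over all 143 miRNAs varied more: from 0 to 14 against 2, from 0 to 45 against 16 and from 0 to 20 against 10 in these comparisons, and from 0 to 4 against 0, from 0 to 47 against 1 and from 0 to 28 against 20 against the family mean. The 14 come from testing miRNAs detected on at least 1 array, and of the other 14 alternatives of that comparison only the variance trend called any, 2. Leaving out a month gave the lowest count in some comparisons and the highest in others.

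No member that changed sign was past the threshold in the main comparison, and the cause of each change was not tested. In the difference between labels in change, the sign was reversed with no scaling for miR-30a-5p (0.39), miR-30e-5p (0.42) and miR-30f (0.37), with the 90th percentile of miRNAs detected on all arrays for miR-30b-5p (-0.19), miR-30c (-0.19) and miR-30d (-0.12), with quantile normalization for miR-30e-5p (0.034) and miR-30f (0.044), with normexp for miR-30e-5p (0.014) and miR-30f (0.055), and without 2 mo for miR-30a-5p (0.050). In the labels at 1, 2 and 4 mo it was reversed with let-7g for miR-30a-5p (0.057), miR-30c (0.23), miR-30e-5p (0.32) and miR-30f (0.18), with normexp for miR-30a-5p (0.050), miR-30b-5p (-0.20), miR-30e-5p (0.078) and miR-30f (0.16), with no scaling for miR-30b-5p (-0.79) and miR-30d (-0.46), with the 75th percentile (-0.14), with the 90th percentile of miRNAs detected on all arrays (-0.060) and without 1 mo (-0.0079) for miR-30b-5p, with quantile normalization for miR-30c (0.047), without 2 mo for miR-30e-5p (0.053) and miR-30f (0.029), and without 4 mo for miR-30c (0.064) and miR-30e-5p (0.040). In the later months against 0 mo it was reversed with no scaling for miR-30a-5p (-0.25), miR-30b-5p (-0.18), miR-30c (-0.17), miR-30e-5p (-0.28) and miR-30f (-0.10), with let-7g for miR-30a-5p (-0.037) and miR-30e-5p (-0.060), without 2 mo for miR-30e-5p (-0.058), and, chosen after seeing the data, with the authors' normalized values for miR-30e-5p (-0.11), without the array labelled housed 0 mo for miR-30a-5p (-0.0056) and miR-30e-5p (-0.011) and without the array labelled housed 2 mo for miR-30e-5p (-0.012).

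The mean change of the family over both labels, 0.21, became 0.51 with the 75th percentile and -0.13 with no scaling. For the label housed, 0.19 became 0.56 with the 75th percentile, 0.52 with the 90th percentile of miRNAs detected on all arrays, 0.26 with their median, 0.012 with let-7g, 0.071 with normexp and -0.44 with no scaling. For the label grazing, 0.23 became 0.45 with the 75th percentile and 0.13 with the 90th percentile of miRNAs detected on all arrays. The change of miR-30d at 1 mo ran from 0.16 to 0.99 for housed, against 0.55, and from 0.57 to 1.27 for grazing, against 1.00, at 2 mo from -0.64 to 0.86 for housed, against 0.46, and for grazing from 0.65 to 1.40, against 0.88. Its changes kept their sign except with no scaling at 2 mo (-0.64) and 4 mo (-0.25) for the label housed and 4 mo (-0.035) for grazing, and with let-7g at 4 mo for housed (-0.086). The ratio of miR-30d to miR-30a-5p changed sign with normexp at 2 mo for housed (-0.047). Signal over background limits miR-30e-5p, miR-30f and the shorter probe of miR-30a-5p.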
